A study of Mus musculus with 2 samples.

Results

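The genes described here are 7 regulators of the Hippo pathway: the angiomotins *Amot*, *Amotl1* and *Amotl2*, the phosphatases *Ptpn14* and *Ptpn21*, and the WW and C2 domain scaffolds *Wwc1* and *Wwc2*. They were taken by symbol from the 32285 genes counted, and each matched 1 gene. All 7 had UMIs (unique molecular identifiers, which count captured RNA molecules) in both libraries. *Amotl2*, *Ptpn14* and *Wwc2* are the members that the study names for these same cells, so their direction here is not independent evidence; the other 4 are their paralogs.

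The study deleted *Yap1* in the epiblast of the mouse embryo and asked how its loss changes differentiation at embryonic day 7. The *Yap1* conditional knockout (cKO) embryos carried Sox2-Cre and the floxed *Yap1* allele on both chromosomes, and the series describes the controls as Sox2-Cre embryos with 1 floxed allele, although the sample label calls them WT and a passage of the methods describes them as free of Cre. The methods give 4 control and 3 cKO embryos, pooled by genotype before a droplet library (10x Genomics, 3′ end counting) was made from each pool. Sox2-Cre recombines in the epiblast and its descendants and not in the earlier extraembryonic lineages, and the study expects those lineages to carry a single working *Yap1* allele in floxed embryos, since the Cre came from the father.

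Each genotype was thus measured in 1 library, without replicates. No test between genotypes was possible, and every interval below is an exact 95% interval that covers counting error only, not the variation between embryos. The control library gave 790 cells with a median of 75696 UMIs and the cKO library 860 cells with a median of 80559. Cells were assigned to 9 populations by marker genes, and the names end in -like because thresholds were set with the data in view. Every marker listed for a population was higher there than in the other assigned cells, by at least 2.16-fold, for example 7 of 7 for epiblast-like and 9 of 9 for extraembryonic ectoderm-like cells, although markers that formed a gate had to be (*Shh* had no UMIs outside node-like cells). Assigning each cell to its highest-scoring marker list instead kept 95.2% of control and 87.1% of cKO epiblast-like cells. It kept 61.4% and 49.5% of nascent mesoderm-like and 44.7% and 47.5% of node-like cells. Anterior visceral endoderm-like cells were kept unequally, 100% in control and 66.7% in cKO. Values of nascent mesoderm-like, node-like and cKO anterior visceral endoderm-like cells thus depend more on the gate. The embryonic populations together held 513 control and 524 cKO cells.

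The Hippo pathway is a kinase cascade in which LATS1 and LATS2 phosphorylate YAP1 and its paralog TAZ, keeping them in the cytoplasm. Unphosphorylated YAP1 and TAZ enter the nucleus and activate genes through the TEAD DNA-binding proteins. Several of these genes encode proteins that restrain YAP1 in turn, a negative feedback. Angiomotins are junction-associated scaffolds that bind YAP1 directly and also promote LATS activity, and in the preimplantation mouse embryo they are known for separating inner cells from outer cells. PTPN14 and PTPN21 are non-receptor tyrosine phosphatases with a FERM domain, and PTPN14 binds the WW domains of YAP1. WWC1, also called KIBRA, and WWC2 are scaffolds that act with merlin (NF2) to activate LATS.

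The sequences just upstream of the start sites are shown because the TEAD proteins through which YAP1 acts recognise the letters CATTCC, or GGAATG on the other strand. Both forms were searched in RefSeq promoter windows of GRCm38.p6, from 250 bases before to 50 bases after each start site, and 1 window was found for each gene and 2 for *Ptpn21*. The letters occurred upstream of the start in *Amotl2*, *Ptpn14* and *Wwc2* and also in *Ptpn21* and in *Yap1* itself, and were absent from these windows of *Amot*, *Amotl1* and *Wwc1*. *Wwc2* held 3 matches. Of 32851 such windows over the genome, 14.7% held at least 1 match and 1.33% held 2 or more. Stretches of 30 bases around each match upstream of the start are printed 5′ to 3′ on the strand of the gene, with the matched letters in capitals.
*Amotl2* (chr9:102717727-102717756, plus strand): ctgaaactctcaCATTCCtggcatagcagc
*Ptpn14* (chr1:189728110-189728139, plus strand): cctccccggacgCATTCCtggcccgcccag
*Wwc2*, far match (chr8:47990730-47990759, minus strand): gagcgagctgtgCATTCCtccgccctaccg
*Wwc2*, near pair (chr8:47990613-47990642, minus strand): ctcaGGAATGtggcggcgaGGAATGtgcat
*Ptpn21* (chr12:98737626-98737655, minus strand): ccctgccgcccgCATTCCaactctctgagg
*Yap1* (chr9:8004720-8004749, minus strand): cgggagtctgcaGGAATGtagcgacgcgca

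Counted to the first base of the match, the distance to the start site was 65 bases in *Amotl2*, 146 in *Ptpn14*, 238 in *Ptpn21* and 203, 94 and 79 in *Wwc2*. The second window of *Ptpn21* held a match shortly after its start. A match is a run of letters and not evidence of binding, and its absence speaks only of these windows. In GENCODE M21 the *Amotl2* gene lies on chromosome 9 from 102716672 to 102733418, *Ptpn14* on chromosome 1 from 189728268 to 189876695 and *Wwc2* on chromosome 8 from 47823959 to 47990924. The printed stretches of *Amotl2* and *Wwc2* lie inside these gene spans, upstream of the RefSeq start but not of the outermost GENCODE start. The windows of *Amot* (chrX:145487590-145487889) and *Amotl1* (chr9:14614951-14615250), where no match was found, also lie inside the gene spans. The *Amotl1* span is 14541966 to 14645056. Sequence at the outermost GENCODE starts of *Amot* and *Amotl1* was therefore not searched. *Amot*, the only X-linked member, lies on the X chromosome from 145446425 to 145505181. The end of *Wwc2* overlaps *Cldn22* on the other strand, and *Cldn22* had 0 UMIs in both libraries.

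*Yap1*, the targeted gene, was checked first. All embryonic cells together had *Yap1* at 30 CPM (UMIs of the gene scaled by the total UMIs of the cells summed) in control and 1.63 in cKO, a ratio of 0.0545 (0.0429 to 0.0684). In epiblast-like cells the level was 29.1 CPM in control and 0.969 in cKO. The level followed the labels in every embryonic population, with ratios from 0.0231 in node-like to 0.195 in blood and endothelial progenitor-like cells. In extraembryonic ectoderm-like cells *Yap1* was 24.9 CPM in control and 18.4 in cKO, a ratio of 0.740 (0.627 to 0.871), and in visceral endoderm-like cells the ratio was 0.879 (0.736 to 1.05). The 18 control and 21 cKO anterior visceral endoderm-like cells were different, with 39.1 and 13.2 CPM and a ratio of 0.337 (0.187 to 0.591). The extraembryonic populations are therefore not a reference with equal *Yap1*.

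Levels of the 7 genes differed widely between populations in the control library. *Amot* had the steepest pattern of any member, from 7.13 CPM in extraembryonic ectoderm-like cells and 12.7 in epiblast-like cells through 48.2 in primitive streak-like and 114 in nascent mesoderm-like cells. It stood at 254 in lateral and extraembryonic mesoderm-like, 240 in blood and endothelial progenitor-like and 213 in node-like cells. Neighbours among these 3 values had overlapping intervals, while the first (240 to 269) and the last (198 to 228) were apart. Visceral endoderm-like cells had 517 CPM and anterior visceral endoderm-like cells 2763, which is 388 times the lowest level. The cKO library gave nearly the same order, from 10.0 to 2473 CPM, with blood and endothelial progenitor-like cells now ahead of lateral mesoderm-like cells at overlapping intervals.

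*Amotl1* was close to even outside the visceral endoderm, between 13.7 and 27.5 CPM in 8 control populations. Visceral endoderm-like cells had 1.99 CPM in control and 1.12 in cKO, with 11 and 18 UMIs in all. *Amotl2* was highest in control blood and endothelial progenitor-like and nascent mesoderm-like cells, at 44.8 and 43.2 CPM, and lowest in anterior visceral endoderm-like cells at 9.51. Only the epiblast-like and anterior visceral endoderm-like cells, at the bottom of this order, were neighbours with separate intervals. In the cKO library extraembryonic ectoderm-like cells ranked first for *Amotl2* at 34.2 CPM, apart from the next population at 19.8, and epiblast-like cells ranked last at 6.48.

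*Ptpn14* was the most even member in control, from 15.1 to 26.4 CPM, and no neighbouring populations had separate intervals. In cKO its range widened to between 8.30 and 25.0 CPM, with the 3 extraembryonic populations on top. *Ptpn21* was highest in visceral endoderm-like cells of both libraries, at 17.4 CPM in control and 16.6 in cKO, and lay between 2.12 and 7.35 in every embryonic population. *Wwc1* was highest in extraembryonic ectoderm-like cells, at 99.2 CPM in control and 79.5 in cKO, and low in the mesoderm-like populations. *Wwc2* was highest in visceral endoderm-like cells, at 103 CPM in control and 120 in cKO, and the control epiblast-like cells had the lowest control level, 41.6.

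**Figure D1:**
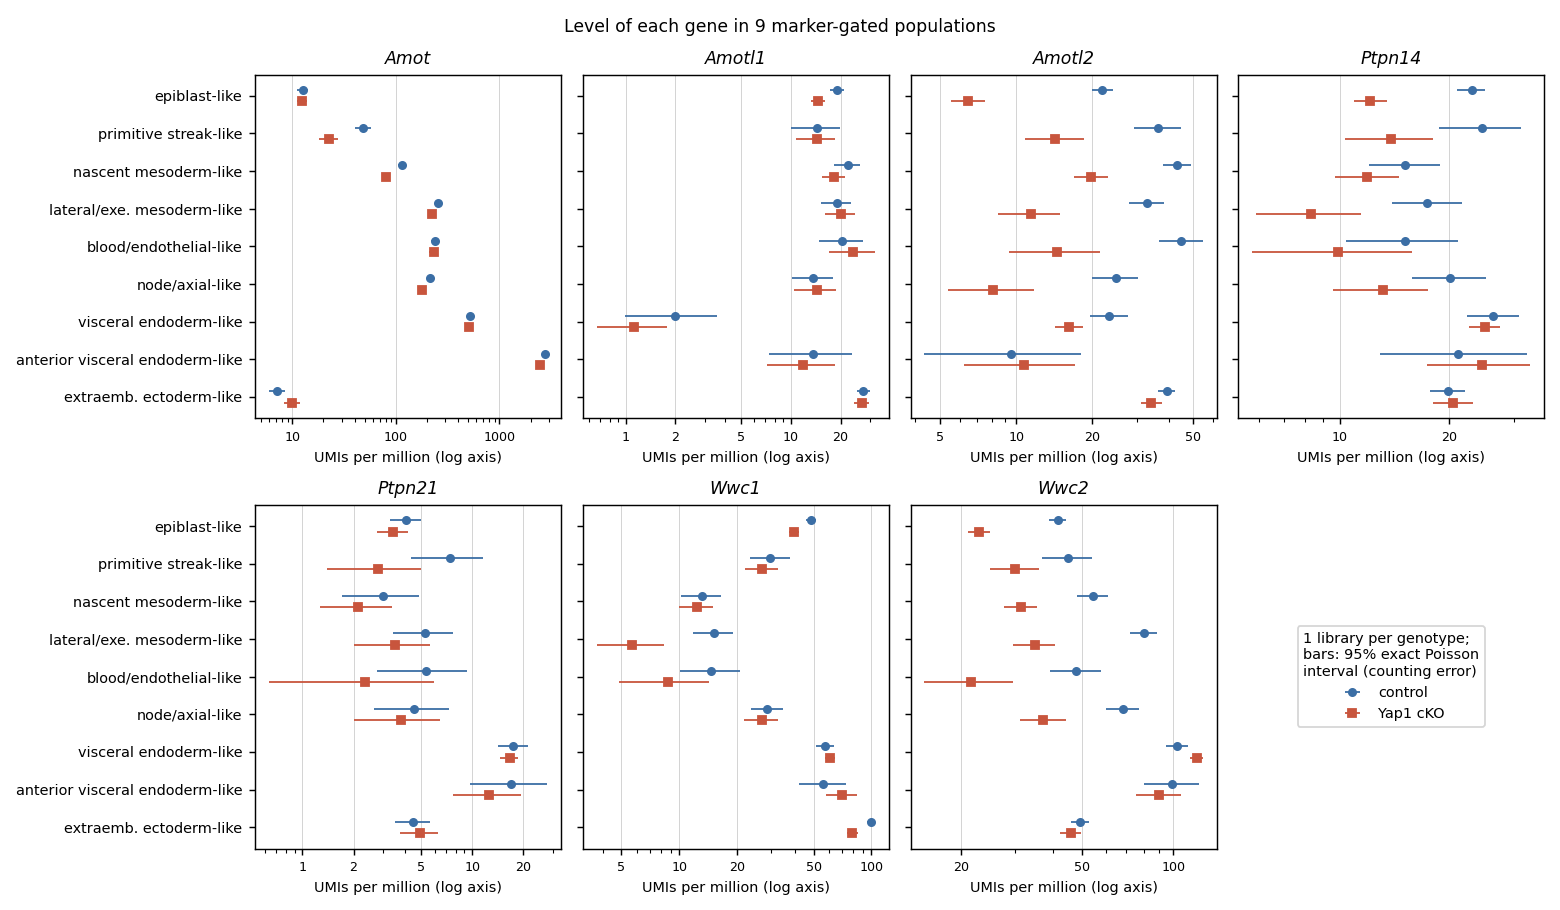
Level of each gene in the 9 populations as CPM (log axis), control library as blue circles and *Yap1* cKO library as red squares, with exact Poisson 95% intervals. In all 6 embryonic rows the cKO points are lower for every gene but *Amotl1*. *Amot* runs from 7.13 CPM in extraembryonic ectoderm-like to 2763 CPM in anterior visceral endoderm-like control cells.

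Comparing genotypes over all embryonic cells, *Amotl2* was the member with the lowest ratio. All embryonic cells together had 28.4 CPM of *Amotl2* in control and 10.3 in cKO, a ratio of 0.362 (0.325 to 0.402). Epiblast-like cells had 21.9 CPM in control (487 UMIs) and 6.48 in cKO (174 UMIs), a ratio of 0.296 (0.247 to 0.352). The other embryonic populations lay between 0.324 in blood and endothelial progenitor-like and 0.459 in nascent mesoderm-like cells, and all 6 intervals were below 1. The share of epiblast-like cells in which the gene was seen was also lower in cKO. At equal depth, each cell thinned at random to 38000 UMIs, 55.6% of 268 control epiblast-like cells had an *Amotl2* UMI (49.4 to 61.6) against 26.1% of 261 cKO cells (20.8 to 31.8). Without thinning these shares were 76.1% and 40.6%.

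In contrast, the ratios of the other angiomotins were nearer 1, and those of *Amot* were less even. *Amot* had similar levels in epiblast-like cells of both libraries, 12.7 CPM in control and 12.5 in cKO, a ratio of 0.987 (0.839 to 1.16). It was lower in cKO primitive streak-like cells, with 48.2 and 22.7 CPM and a ratio of 0.471 (0.354 to 0.625). The ratio was 0.710 (0.636 to 0.793) in nascent mesoderm-like cells and 0.868 (0.798 to 0.945) in lateral and extraembryonic mesoderm-like cells. Summed over the embryonic populations *Amot* had a ratio of 0.736 (0.701 to 0.772), a figure that mixes populations with very different *Amot* levels. Comparing each population only with itself and weighting them together gave 0.839. *Amotl1* was 19.1 CPM in control and 14.6 in cKO epiblast-like cells, a ratio of 0.763 (0.663 to 0.878), and in the other 5 embryonic populations its ratio lay between 0.829 and 1.16 with intervals that held 1.

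*Ptpn14* was lower in cKO in every embryonic population, less strongly than *Amotl2*. Its level over all embryonic cells was 20.7 CPM in control and 11.9 in cKO, a ratio of 0.573 (0.515 to 0.638). Epiblast-like cells had 23.0 and 12.1 CPM, a ratio of 0.529 (0.459 to 0.609), and 57.5% of control against 34.1% of cKO thinned epiblast-like cells had a UMI. The lowest ratio was 0.476 (0.315 to 0.707) in lateral and extraembryonic mesoderm-like cells. In nascent mesoderm-like cells, with 81 and 101 UMIs, the ratio of 0.787 (0.582 to 1.07) had an interval that held 1, as did blood and endothelial progenitor-like cells with 34 and 17 UMIs.

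*Ptpn21* was sparse in the embryo proper, with 178 control and 154 cKO UMIs over all embryonic cells. These are 4.37 and 3.14 CPM, a ratio of 0.720 (0.576 to 0.898). Its epiblast-like ratio was 0.846 (0.626 to 1.14). Only the primitive streak-like cells, with 18 and 11 UMIs, had an interval below 1, at 0.382 (0.163 to 0.853), which is too few molecules for a firm value. In visceral endoderm-like cells, where *Ptpn21* is most abundant, the ratio was 0.955 (0.753 to 1.22).

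*Wwc2* was lower in cKO in all 6 embryonic populations, each with an interval below 1. The level over all embryonic cells was 50.7 CPM in control and 27.0 in cKO, a ratio of 0.533 (0.497 to 0.571). Ratios ran from 0.438 (0.362 to 0.528) in lateral and extraembryonic mesoderm-like cells, with 79.8 and 34.9 CPM, to 0.670 (0.512 to 0.877) in primitive streak-like cells. In epiblast-like cells it was 41.6 CPM in control and 22.9 in cKO, a ratio of 0.550 (0.496 to 0.610), and 74.6% of control against 54.8% of cKO thinned cells had a UMI.

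By summed UMIs *Wwc1* differed less over the same cells, with 35.0 CPM in control and 28.7 in cKO, a ratio of 0.820 (0.762 to 0.884). Its epiblast-like ratio was 0.821 (0.754 to 0.895). The exception was the lateral and extraembryonic mesoderm-like population, where *Wwc1* had 15.1 CPM in control (72 UMIs) and 5.68 in cKO (26 UMIs), a ratio of 0.376 (0.230 to 0.595). In that population *Wwc1* was thus as low relative to control as *Wwc2*. By share of thinned epiblast-like cells with a UMI, *Wwc1* was also lower in cKO, with intervals that were apart. The share was 84.0% in control (79.0 to 88.1) and 69.7% in cKO (63.8 to 75.2), beside 74.6% and 54.8% for *Wwc2*.

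**Figure D2:**
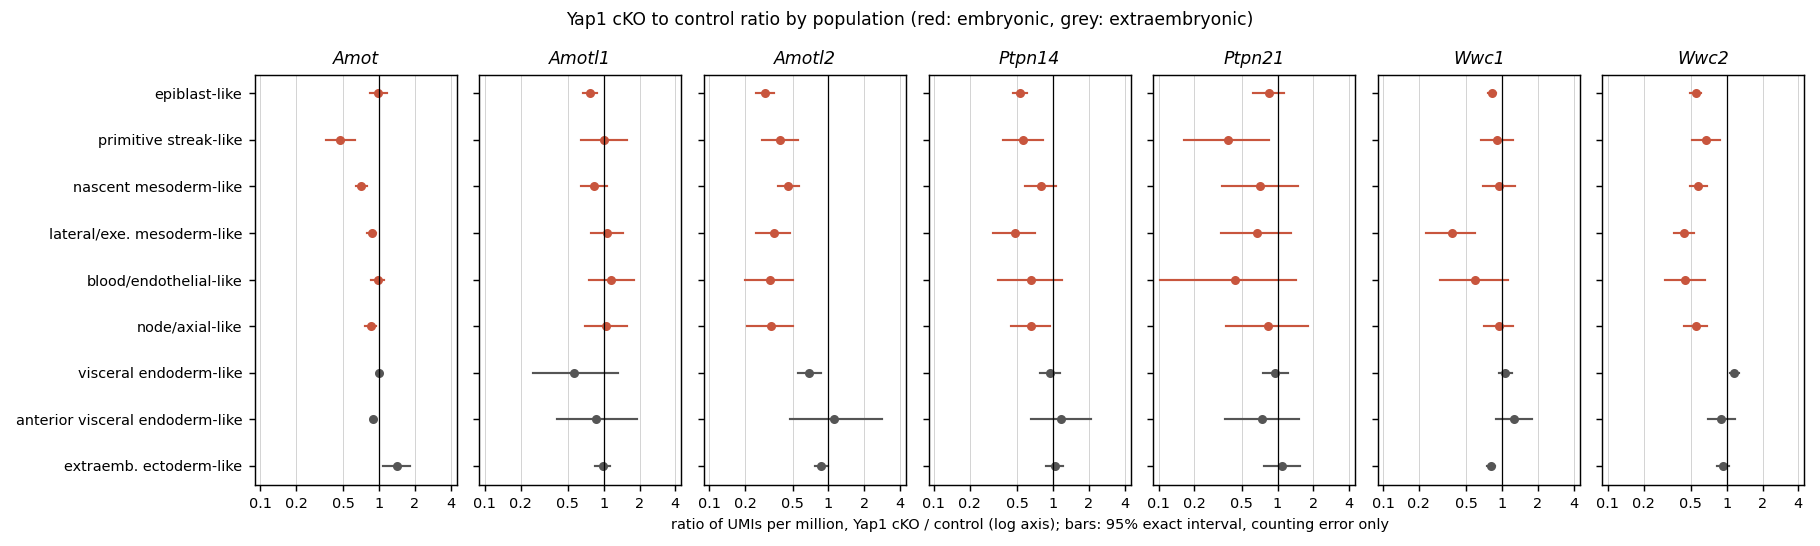
Ratio of CPM in the *Yap1* cKO library to the control library (log axis) for each gene and population, with exact 95% intervals for counting error, embryonic populations in red and extraembryonic in grey. *Amotl2* and *Wwc2* lie below 1 with their whole interval in all 6 embryonic populations, whereas *Amotl1* does so only in epiblast-like cells.

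To read these ratios against the genome, all genes with at least 100 UMIs in both libraries together were counted in the same way. Over all embryonic cells 382 of 13052 genes were lower in cKO by a factor of at least 1.5, which is 2.93%, and 1.05% were higher by that factor. Of the 7 members 3 were lower by this factor, namely *Amotl2*, *Ptpn14* and *Wwc2*, and 0 were higher. The median ratio of the 7 was 0.720, and that of all 13052 genes 0.966. In epiblast-like cells alone the same 3 members were lower by the factor, beside 2.08% of 11548 genes. There *Amotl2* had the fourth lowest ratio of all genes counted, behind 3 others that include *Yap1*, while 0.381% of the genes had a ratio lower than *Ptpn14* and 0.468% one lower than *Wwc2*. The paralogs sat nearer the bulk of the genome there, with 5.65% of genes below *Amotl1*, 11.3% below *Wwc1*, 14.9% below *Ptpn21* and 55.6% below *Amot*. Over all embryonic cells 4.51% of genes were below *Ptpn21*, 5.09% below *Amot*, 11.0% below *Wwc1* and 15.9% below *Amotl1*. For *Amotl2*, *Wwc2* and *Ptpn14* these shares were 0.161%, 0.728% and 1.16%.

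The comparison of each named gene with its paralog in the same cells does not depend on how the libraries are scaled. UMIs of 2 genes cannot be compared as levels, since capture may differ between them, so only the change in their proportion from control to cKO was read. In all embryonic cells there were 1.51 *Amotl2* UMIs for each *Amotl1* UMI in control and 0.642 in cKO, an odds ratio of 0.424 (0.366 to 0.491). Against *Amot* the odds ratio was 0.492 (0.438 to 0.553), and in epiblast-like cells, where the ratio of *Amot* was close to 1, it was 0.30 (0.235 to 0.382). *Amotl2* contributed 40.9% of angiomotin UMIs in control epiblast-like cells and 19.3% in cKO cells. In primitive streak-like cells both genes were low in cKO and the odds ratio of *Amotl2* against *Amot* was 0.835 (0.528 to 1.32). Intervals below 1 for this pair were not confined to embryonic populations. Extraembryonic ectoderm-like cells gave 0.621 (0.465 to 0.828), and visceral endoderm-like cells gave 0.699 (0.561 to 0.873). The value of 1.25 (0.527 to 3.19) among anterior visceral endoderm-like cells rested on 9 control and 17 cKO *Amotl2* UMIs. Against *Amotl1* the interval of each extraembryonic population held 1.

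For the phosphatases the proportion moved less. There were 4.74 *Ptpn14* UMIs for each *Ptpn21* UMI in control and 3.77 in cKO over all embryonic cells, an odds ratio of 0.797 with an interval (0.622 to 1.02) that held 1. With a minimum of 2000 genes per cell it was 0.771 (0.604 to 0.986). In epiblast-like cells it was 0.626 (0.447 to 0.875), and in the other 5 embryonic populations *Ptpn21* had 25 UMIs or fewer per library and the intervals were wide. An interval below 1 was thus found among the embryonic populations in epiblast-like cells only. In epiblast-like cells with Y-linked UMIs and no *Xist*, *Ptpn21* had a ratio of 0.517 (0.285 to 0.895) and *Ptpn14* 0.510. In those with *Xist* and no Y-linked UMIs the ratios were 1.13 (0.743 to 1.76) and 0.480. Over all embryonic cells of these 2 classes the odds ratio was 0.929 (0.574 to 1.54) and 0.603 (0.427 to 0.847).

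The *Wwc* genes gave 1.45 *Wwc2* UMIs per *Wwc1* UMI in control and 0.940 in cKO over all embryonic cells, an odds ratio of 0.650 (0.586 to 0.719). The share of *Wwc2* in the UMIs of the pair was 59.1% in control and 48.5% in cKO. Epiblast-like, nascent mesoderm-like and node-like cells had odds ratios of 0.670, 0.618 and 0.587 with intervals below 1. Primitive streak-like cells had 0.739 (0.488 to 1.12) and blood and endothelial progenitor-like cells 0.755 (0.351 to 1.67), with intervals that held 1. In lateral and extraembryonic mesoderm-like cells, where both genes were low, the odds ratio was 1.17 (0.705 to 1.98). In extraembryonic ectoderm-like cells it was 1.16 (1.01 to 1.33), an interval above 1. The intervals of visceral endoderm-like and anterior visceral endoderm-like cells held 1.

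**Figure D3:**
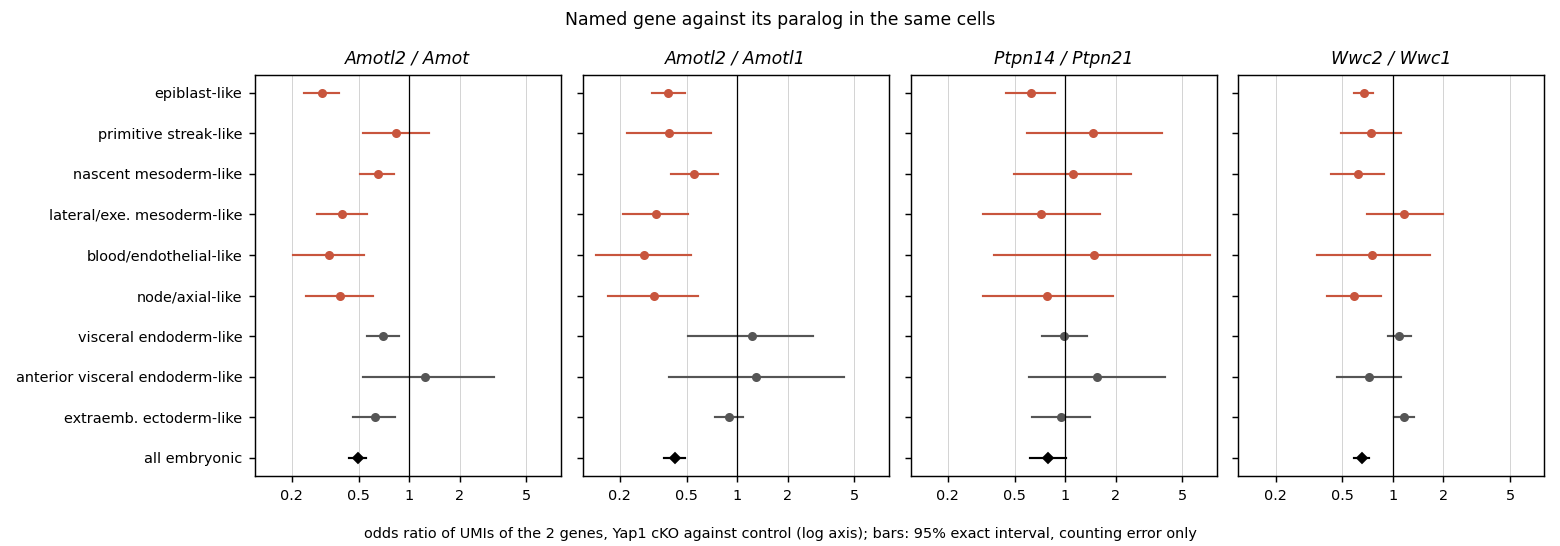
Odds ratio of the UMIs of each named gene against its paralog, *Yap1* cKO against control (log axis), with exact 95% intervals for counting error, embryonic populations in red, extraembryonic in grey and all embryonic cells as a black diamond. *Amotl2* against *Amotl1* lies below 1 in all 6 embryonic populations, and *Ptpn14* against *Ptpn21* holds 1 over all embryonic cells at 0.797.

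In the extraembryonic populations of the same libraries, where Sox2-Cre is not meant to act, the ratios of the named genes lay nearer 1 than over all embryonic cells. Anterior visceral endoderm-like cells, where the *Yap1* ratio was 0.337, had few UMIs of these genes. *Amotl2* had 1.12 (0.473 to 2.85) there on 9 control and 17 cKO UMIs, too few to place it. *Ptpn14* had 1.16 (0.659 to 2.09) on 20 and 39 UMIs, and *Wwc2* had 0.903 (0.691 to 1.18). In extraembryonic ectoderm-like cells 0 of the 7 members were lower by a factor of 1.5, beside 1.23% of 9815 genes. With so low a share over all genes, that count says little about the members. *Amotl2* had 39.3 CPM in control and 34.2 in cKO, a ratio of 0.871 (0.769 to 0.985). *Ptpn14* had 19.8 and 20.5 CPM, a ratio of 1.04 (0.876 to 1.22), and *Wwc2* had 49.3 and 45.9 CPM, a ratio of 0.930 (0.835 to 1.04). *Wwc1* was the lowest there at 0.802 (0.741 to 0.868), close to its embryonic ratio. *Amot* was higher in cKO, 7.13 against 10.0 CPM, at 1.40 (1.08 to 1.82), but 26 of its 124 cKO UMIs came from a single cell. Without the highest cell of each library the ratio was 1.23 (0.927 to 1.63).

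The same ratios were taken within classes of cells by sex-linked UMIs. Y-bearing cells, which have Y-linked UMIs and no *Xist*, made up 60.3% of control but 19.2% of cKO extraembryonic ectoderm-like cells. In them *Amotl2* had a ratio of 0.582 (0.433 to 0.768), past the factor of 1.5, against 1.06 (0.874 to 1.28) in Xist-bearing cells, which have *Xist* and no Y-linked UMIs. *Amot* had 0.523 (0.242 to 1.01) in Y-bearing and 1.47 (0.957 to 2.32) in Xist-bearing cells. For *Ptpn14* the values were 0.767 (0.534 to 1.08) and 1.28 (0.976 to 1.70), and for *Wwc2* 0.847 (0.681 to 1.05) and 1.05 (0.884 to 1.25). *Yap1* itself had 0.616 (0.431 to 0.860) and 0.921 (0.715 to 1.19). The part of this difference in the ratios of the whole population was not tested.

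Setting the embryonic ratio against that of extraembryonic ectoderm-like cells gave a double ratio, which was 0.416 (0.353 to 0.490) for *Amotl2*, 0.554 (0.454 to 0.676) for *Ptpn14* and 0.573 (0.504 to 0.652) for *Wwc2*. For the paralogs it was 1.02 (0.917 to 1.14) for *Wwc1*, 0.874 (0.733 to 1.04) for *Amotl1* and 0.655 (0.431 to 0.998) for *Ptpn21*, whose interval held 1 in either class of cells by sex-linked UMIs and with a minimum of 2000 genes per cell, where it was 0.670 (0.443 to 1.02). *Amot* had 0.524 (0.403 to 0.682), a value that rests on 121 control and 124 cKO *Amot* UMIs of extraembryonic ectoderm-like cells. The intervals of *Wwc1* and *Amotl1* held 1. Within Y-bearing cells the double ratio of *Amotl2* was 0.658 and within Xist-bearing cells 0.326, while that of *Amot* was 1.34 (0.689 to 2.91) in Y-bearing cells. The values also depend on the reference. Against visceral endoderm-like cells *Wwc1* had 0.773 (0.665 to 0.897), an interval below 1. *Amotl1* had 1.51 (0.642 to 3.41), *Ptpn21* 0.755 (0.542 to 1.05) and *Amot* 0.740 (0.694 to 0.789). *Amotl2*, *Ptpn14* and *Wwc2* had 0.522, 0.606 and 0.459 against that reference, with intervals below 1.

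Visceral endoderm-like cells, 71 control and 198 cKO, had 6 members with at least 100 UMIs and 0 that were lower by the factor, beside 2.03% of 9405 genes. Here too the low share over all genes means that the count says little about the members. *Wwc2* was higher in cKO there, 103 against 120 CPM, a ratio of 1.16 (1.06 to 1.28). *Amotl2* was lower, 23.3 against 16.2 CPM, at 0.694 (0.560 to 0.864), and 0.781 (0.621 to 0.987) without the highest cell of each library. *Amot*, very abundant in these cells, had 517 and 514 CPM, a ratio of 0.994 (0.953 to 1.04). Visceral endoderm markers made up 8.71 CPM of control and 11.0 CPM of cKO embryonic cells, with all 8 markers detected in both, against 18091 and 17036 CPM in visceral endoderm-like cells. The part of such RNA in the embryonic *Amot* level was not tested.

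The labels call both samples female, but both libraries held cells with Y-linked UMIs, so each cell was also classed by its Y-linked and *Xist* UMIs. Y-bearing cells made up 51.6% of control and 15.6% of cKO cells and Xist-bearing cells 42.2% and 77.6%. A comparison within each class sets Y-bearing cells against Y-bearing cells and Xist-bearing cells against Xist-bearing cells, which bears most directly on the X-linked *Amot*. In Y-bearing embryonic cells, 269 control and 94 cKO, *Amotl2* had a ratio of 0.383 (0.311 to 0.469), and in Xist-bearing cells, 224 and 408, of 0.344 (0.301 to 0.394). *Ptpn14* had 0.475 (0.378 to 0.592) and 0.566 (0.494 to 0.649), and *Wwc2* 0.441 (0.383 to 0.505) and 0.587 (0.535 to 0.643). These 3 genes were lower in cKO in both classes.

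*Amot* was also lower over all embryonic cells of both classes, at 0.701 (0.642 to 0.765) in Y-bearing and 0.781 (0.732 to 0.834) in Xist-bearing cells. *Ptpn21* had 0.511 (0.327 to 0.777) in Y-bearing cells, against 0.939 (0.690 to 1.29) in Xist-bearing cells. *Wwc1* had 0.923 (0.811 to 1.05) in Y-bearing and 0.766 (0.693 to 0.846) in Xist-bearing cells. By population, *Amot* had intervals below 1 in both classes in primitive streak-like cells, at 0.229 (Y-bearing) and 0.532 (Xist-bearing). Nascent mesoderm-like cells had 0.899 (0.712 to 1.13) and 0.734 (0.636 to 0.849). Lateral and extraembryonic mesoderm-like cells had 0.852 (0.750 to 0.967) and 1.05 (0.910 to 1.21). Both intervals held 1 in epiblast-like and blood and endothelial progenitor-like cells. Node-like cells had 0.695 in the Xist-bearing class, with 1 Y-bearing cKO cell. Whether these ratios differ between the classes was not tested.

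**Figure D4:**
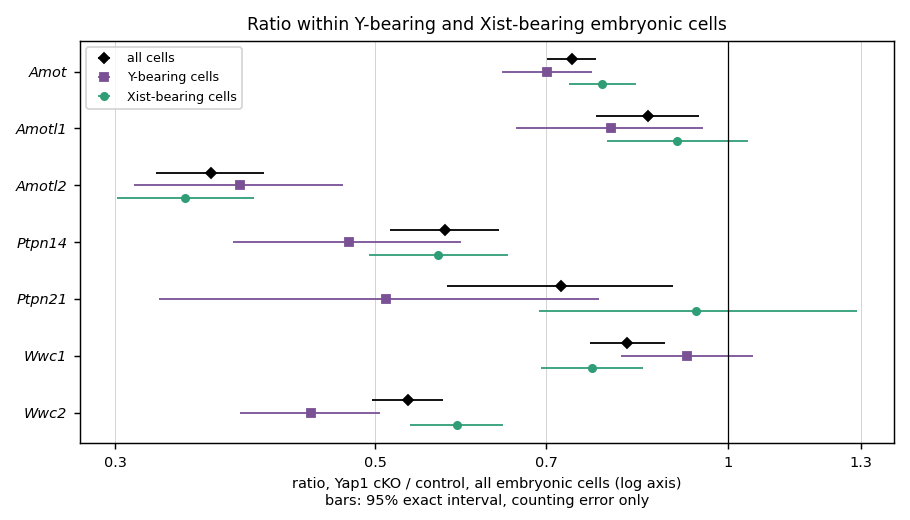
Ratio of the *Yap1* cKO library to the control library over embryonic cells (log axis) for all cells, Y-bearing cells and Xist-bearing cells, with exact 95% intervals for counting error. All genes have points left of 1 in both classes, and *Amotl2*, *Ptpn14*, *Wwc2* and *Amot* also have their whole intervals there. The *Amot* values mix populations with very different *Amot* levels. *Ptpn21* lies at 0.511 for the Y-bearing class and 0.939 for the other, with intervals that overlap.

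The epiblast-like population was further parted by *Fgf8*, a growth factor gene of the posterior epiblast and primitive streak, at 100 CPM, a split chosen after the data were seen. The cKO library held more *Fgf8*-high cells, 120 of its epiblast-like cells against 52 in control, and 151 against 220 that were *Fgf8*-low. The split thus sorts cells by a gene whose own level differed between the libraries. Whether either side holds the same kinds of cells in both libraries was not tested, so its ratios may not compare like with like. *Amotl2* was lower in cKO on both sides, at 0.238 (0.183 to 0.305) in *Fgf8*-low and 0.339 (0.255 to 0.449) in *Fgf8*-high cells. The ratio was 0.521 and 0.509 for *Ptpn14* and 0.599 and 0.476 for *Wwc2*. *Amot* had 1.09 (0.873 to 1.35), an interval that held 1, in *Fgf8*-low cells and 0.624 (0.487 to 0.805) in *Fgf8*-high cells.

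*Amotl2*, *Ptpn14* and *Wwc2* were also counted together in each thinned epiblast-like cell. Of 268 control cells, 26.9% had a UMI of all 3 genes (21.7 to 32.6) and 7.46% had none of them (4.62 to 11.3). In cKO the shares were the other way round, with 6.51% of 261 cells holding all 3 (3.84 to 10.2) and 25.7% holding none (20.5 to 31.4). In extraembryonic ectoderm-like cells the shares with all 3 were 26.7% and 27.7%. For comparison, *Yap1* was seen in 63.8% of thinned control and 2.68% of thinned cKO epiblast-like cells, and *Amotl1* in 6.15% of thinned control visceral endoderm-like cells. The cKO share of *Yap1* was higher in the other embryonic populations, for example 9.78% in thinned nascent mesoderm-like cells. Whether such UMIs come from free RNA was not tested. Where a share is lower, cells without the RNA and cells with less of it cannot be told apart.

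Over the 18 profiles given by 9 populations in 2 libraries, the gene most like each named member was found by Pearson's correlation of log2(CPM + 1) among 9243 genes with at least 1000 UMIs. The profiles share libraries and depth, so the values describe these libraries only. Those most like *Amotl2* were *Rps21* at 0.820, *Eif3j1* at 0.797 and *Lats2* at 0.788, the last encoding the Hippo kinase. *Ptpn14* was nearest to *Rab6b* at 0.838, *Atp13a3* at 0.821 and *Ndufa3* at 0.809, and *Wwc2* to *Nagk* at 0.890, *Mfn1* at 0.889 and *Gm42418* at 0.884. Between members the correlation was highest for *Ptpn21* with *Wwc2*, at 0.86, and lowest for *Amotl1* with *Ptpn21*, at -0.72. *Amotl2* and its paralog *Amot* had -0.28.

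The rest of the pathway was read from 4 lists, by ratio over all embryonic cells and among genes with at least 100 UMIs, of which 2.93% of 13052 were lower and 1.05% higher by a factor of 1.5, with a median of 0.966. In the list of Hippo core and upstream genes 4 of 19 were lower by a factor of 1.5 and 0 higher, with a median of 0.863. The lowest were *Lats2*, at 0.367 (0.314 to 0.427), and *Ajuba*, a LIM protein that binds LATS kinases, at 0.406 (0.369 to 0.447). *Frmd6* at 0.586 and *Wtip* at 0.621 completed the 4 and are named after their values were seen. The highest were *Taok3*, a kinase upstream of the cascade, at 1.27 (1.12 to 1.44), and *Mark2*, a polarity kinase, at 1.11. The core kinase gene *Lats1*, paralog of *Lats2*, had 0.778 (0.702 to 0.862) and is also named after its value was seen.

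Among 21 genes of junctional and polarity proteins and of ubiquitin ligases and tankyrases that bind or turn over these scaffolds, 0 were lower or higher by the factor, and the median was 0.919. The extremes were *Pard6b* at 0.706, *Prkci* at 0.770, *Magi3* at 1.01 and *Tnks2* at 1.10. *Pard6b* and *Prkci* encode partners in the apical polarity complex. Of 18 genes in a list of YAP1 and TAZ targets outside the 7 members, 7 were lower by the factor and 0 higher, with a median of 0.819. *Lats2* and *Ajuba* stand both in this list and in that of Hippo core and upstream genes, and are counted in each. *Ccn1*, a matricellular protein gene, was lowest at 0.253 (0.203 to 0.312) with *Lats2* next, and *Nt5e* at 1.17 and *Rbms3* at 1.14 were highest. Of 7 effector genes, *Yap1* and *Tead4*, at 0.649 (0.525 to 0.80), were lower by the factor, and *Tead2* at 1.03 and *Tead3* at 1.21 were highest.

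The ratios of *Lats2* and *Ajuba* in extraembryonic ectoderm-like cells were 1.14 (0.926 to 1.41) and 1.0 (0.802 to 1.25), and that of *Ccn1* was 0.945. These 3 genes were lower in cKO in the embryonic cells by more than the factor, and their intervals held 1 in extraembryonic ectoderm-like cells. Of the 18 target genes counted, 11 did not pass the factor in embryonic cells.

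**Figure D5:**
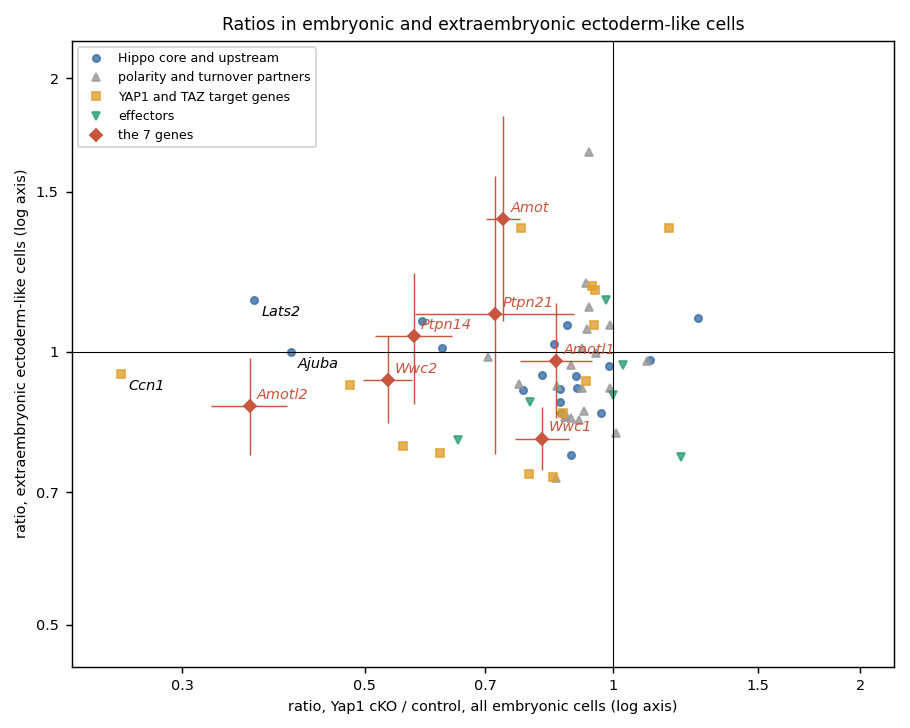
Ratio of the *Yap1* cKO library to the control library in all embryonic cells (x axis, log) and in extraembryonic ectoderm-like cells (y axis, log) for the 7 genes, in red with exact 95% intervals, and for genes of the 4 pathway lists as single points, each drawn under the first list that holds it. *Amotl2*, *Ptpn14* and *Wwc2* lie left of the bulk near a ratio of 1 on the y axis, beside *Lats2* and *Ajuba*. *Yap1* and 4 genes beyond the axis limits (*Ccdc80*, *Fat4*, *Igfbp3* and *Rbms3*) are left out.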

How the data were processed

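Single cells of pooled E7 embryos were measured in 1 control and 1 *Yap1* cKO library. The authors aligned reads and counted UMIs with Cell Ranger 7.1.0 on mm10, and the deposited values are unnormalized UMI counts per gene and barcode (1829 control and 1897 cKO barcodes, 70573418 and 87937858 UMIs); the libraries shared 2 barcodes and no cells. Barcodes with under 5000 genes, over 10% mitochondrial UMIs or a scrublet doublet call (scanpy 1.11.5; 1 control and 4 cKO) were left out; ambient RNA was not subtracted.

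Cells were gated in a fixed order by summed CPM of markers, and UMIs were summed per population and library. Cells with 2 or more Y-linked UMIs (*Uty*, *Kdm5d*, *Eif2s3y*, *Ddx3y*) and no *Xist* were called Y-bearing, and the converse Xist-bearing. Thinning to 38000 UMIs (1 random draw) left out 26 control and 48 cKO cells. Intervals at 95% were exact: Poisson for levels, Clopper-Pearson for shares, a conditional binomial for ratios of libraries, and conditional odds ratios for 2 genes or populations (scipy 1.17.1). Only the intervals of ratios and odds ratios were tested on simulated counts. These were Poisson draws without variation between cells or embryos. Gating, thinning and the classes by sex-linked UMIs were not tested in this way. The members, marker and pathway lists were chosen with earlier results of these data known. Named genes are the 7 members, *Yap1*, the 3 genes most like each of *Amotl2*, *Ptpn14* and *Wwc2*, and the 2 lowest and 2 highest of each pathway list. *Dchs1*, *Ankrd1*, *Axl* and *Foxf2* had under 100 UMIs, and 1 listed symbol matched no gene. Gene coordinates are those of GENCODE M21 (GRCm38) by Ensembl identifier.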

Additional observations from a re-analysis of the deposited data

Results flagged for a closer look

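Several ratios of *Yap1* cKO to control lay on different sides of 1, or apart, in 2 kinds of cells of the same libraries. With 1 library per genotype the difference was not tested between embryos, and the intervals cover counting error only.

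The double ratio of all embryonic against extraembryonic ectoderm-like cells had an interval below 1 for 5 genes: *Amotl2* at 0.416, *Amot* at 0.524, *Ptpn14* at 0.554, *Wwc2* at 0.573 and *Ptpn21* at 0.655. That of *Ptpn21* reached up to 0.998, and the interval held 1 within each class of cells by sex-linked UMIs. *Amot* was higher in cKO extraembryonic ectoderm-like cells, with a ratio of 1.40, while it was lower in primitive streak-like, nascent mesoderm-like, lateral and extraembryonic mesoderm-like, node-like and anterior visceral endoderm-like cells. In lateral and extraembryonic mesoderm-like cells *Amot* was not lower within the Xist-bearing class, at 1.05 (0.910 to 1.21). Without the highest cell of each library the 1.40 became 1.23 (0.927 to 1.63). The double ratio of *Amot* was 1.34 (0.689 to 2.91) in Y-bearing cells. *Wwc2* was higher in cKO visceral endoderm-like cells, with a ratio of 1.16, and lower in all 6 embryonic populations.

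Within visceral endoderm-like cells the classes of cells by sex-linked UMIs went opposite ways. For *Amot* the ratio was 1.36 in Y-bearing cells and 0.933 in Xist-bearing cells. For *Wwc2* it was 0.483 in Y-bearing cells and 1.21 in Xist-bearing cells. The Y-bearing class held 20 control and 12 cKO cells there, against 46 control and 171 cKO cells of the Xist-bearing class.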

How the results depend on the processing

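Of 133 values recomputed under other settings, 111 stayed within the 95% interval of the value reported, 21 left it in the same direction and 1 changed direction; the causes were not tested. *Amotl2*, *Ptpn14* and *Wwc2* stayed below 1 in all 45 of their recomputed ratios and double ratios, between 0.326 and 0.658. These counts include settings with little room to move a value. Keeping doublets added back 1 control and 4 cKO barcodes, and median-ratio scaling divided every ratio by 0.966. In Y-bearing cells the embryonic ratio was 0.701 for *Amot*, 0.475 for *Ptpn14*, 0.511 for *Ptpn21*, 0.923 for *Wwc1* and 0.441 for *Wwc2*, the odds ratio of *Wwc2* against *Wwc1* 0.477, and the double ratio 0.658 for *Amotl2*. The double ratio of *Amot* turned to 1.34 (0.689 to 2.91) in Y-bearing cells, with 10 cKO *Amot* UMIs in extraembryonic ectoderm-like cells. In Xist-bearing cells the ratio was 0.781 for *Amot*, 0.939 for *Ptpn21* and 0.587 for *Wwc2*, the odds ratio 0.603 for *Ptpn14* against *Ptpn21*, with an interval below 1, and 0.766 for *Wwc2* against *Wwc1*, and the double ratio 0.326 for *Amotl2* and 0.442 for *Ptpn14*. *Amot* was closest to 1 with cells assigned to the highest-scoring marker list (0.928), and was 0.832 in thinned cells, 0.847 as a mean of CPM over cells and 0.839 when populations were weighted (Mantel-Haenszel, chosen after seeing the data). Highest-score assignment gave 0.407 for *Amotl2* against *Amot*. In thinned cells *Wwc1* was 0.705, where the mean over all draws is 0.769, and *Wwc2* against *Wwc1* 0.799. Gene minimums of 2000 and 6000, kept doublets, median-ratio scaling and a stricter limit on visceral endoderm UMIs left every value within the interval reported. With the minimum of 2000 genes, however, *Ptpn14* against *Ptpn21* came to lie below 1 with its whole interval, at 0.771 (0.604 to 0.986), and the double ratio of *Ptpn21* no longer did, at 0.670 (0.443 to 1.02). The latter also held 1 in Y-bearing (0.278 to 1.70) and Xist-bearing cells (0.440 to 1.65). The ratios of *Amotl1* and *Ptpn21* in Xist-bearing cells and of *Wwc1* in Y-bearing cells had intervals that held 1. No paired analysis was possible because each genotype has 1 library.

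Embryo-to-embryo variation cannot be estimated. Depth limits *Ptpn21*, which had 25 UMIs or fewer per library in 5 of the 6 embryonic populations, and *Amotl1* in visceral endoderm-like cells. The population names rest on gates set with the data in view.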
